A study of Homo sapiens with 24 samples.

Results

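The genes S100A2, S100A4, S100A6, S100A8, S100A9, S100A10, S100A11, S100A14, S100A16 and S100P, all of the S100 family of calcium-binding proteins, were followed across 3 human cancer cell lines and 2 RNA fractions. These 10 genes were taken by symbol, with earlier results of these data known, and all 10 were present among the 51715 genes counted. Polyadenylated RNA was sequenced from untreated, growing cultures of A-431 (an epidermoid carcinoma line with epithelial properties), U-251MG (a glioblastoma line) and U-2 OS (an osteosarcoma line of mesenchymal origin). From each line, a total RNA fraction (lysate of whole cells) and a cytoplasmic fraction (lysate with a mild detergent that leaves nuclei behind) were prepared, with 4 libraries in each of the 6 groups. Each line stands for itself and not for its tissue, and no agent or genetic change was applied to any group. The libraries are numbered from 1 to 24 as in their titles, and 23 of them were used, because U-2 OS cytoplasmic library 13 was left out.

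S100 proteins are small proteins with a pair of calcium-binding EF-hands, and most of them work as dimers. When calcium binds, the dimer opens a surface that docks onto partner proteins such as annexins, myosin and p53, and some members also leave the cell and bind receptors such as AGER and TLR4. Most S100 genes lie in a cluster on the long arm of chromosome 1, where they flank the genes of the epidermal differentiation complex, and several are known from squamous epithelium.

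Among the genes studied here, 9 lie on chromosome 1 and S100P lies on chromosome 4. In the GENCODE annotation on GRCh37, S100A10 (ENSG00000197747) spans chr1:151955391-151966335 and S100A11 (ENSG00000163191) spans chr1:152004982-152020383, both on the minus strand. S100A9 (ENSG00000163220) lies at chr1:153330330-153333499 on the plus strand, and S100A8 (ENSG00000143546) lies at chr1:153362508-153363549 on the minus strand. The other 5 genes on chromosome 1 are on the minus strand as well. These are S100A6 (ENSG00000197956) at chr1:153507075-153508720, S100A4 (ENSG00000196154) at chr1:153516089-153522612, S100A2 (ENSG00000196754) at chr1:153533584-153540366, S100A16 (ENSG00000188643) at chr1:153579362-153585621 and S100A14 (ENSG00000189334) at chr1:153586731-153589462. S100P (ENSG00000163993) lies at chr4:6695605-6698897 on the plus strand. Their coding sequences are between 270 bases (S100A6) and 342 bases (S100A9) long. S100A4 overlaps S100A3 on the same strand, and S100A6 and S100A11 each overlap an unnamed gene on the opposite strand. Since reads were counted without regard to strand, a read lying in both genes of such a pair could not be assigned, and the S100A11 counts can also be affected by its pseudogenes.

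The 250 bases upstream of the RefSeq start (GRCh38.p14) are shown for 5 of the genes, as examples of genes counted in every library and of those counted almost only in A-431. Capitals mark every CG pair and every TATAAA, the motif known as the TATA box. S100A6 (chr1:153535992-153536241, minus strand) and S100A11 (chr1:152037005-152037254, minus strand) were counted at high levels in all 3 lines.
S100A6: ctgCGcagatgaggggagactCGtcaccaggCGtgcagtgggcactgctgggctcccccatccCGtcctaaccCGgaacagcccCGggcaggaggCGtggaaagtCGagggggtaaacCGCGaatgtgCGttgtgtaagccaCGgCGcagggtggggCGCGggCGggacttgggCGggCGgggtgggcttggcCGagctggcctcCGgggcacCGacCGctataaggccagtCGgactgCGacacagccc
S100A11: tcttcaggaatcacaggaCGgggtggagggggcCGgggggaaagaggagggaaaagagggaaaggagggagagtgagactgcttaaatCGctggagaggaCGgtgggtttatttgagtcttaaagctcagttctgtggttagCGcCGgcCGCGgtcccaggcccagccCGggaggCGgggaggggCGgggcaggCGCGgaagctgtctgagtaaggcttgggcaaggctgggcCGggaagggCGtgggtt
S100A9 (chr1:153357604-153357853, plus strand), S100A14 (chr1:153616326-153616575, minus strand) and S100P (chr4:6693628-6693877, plus strand) were counted almost only in A-431.
S100A9: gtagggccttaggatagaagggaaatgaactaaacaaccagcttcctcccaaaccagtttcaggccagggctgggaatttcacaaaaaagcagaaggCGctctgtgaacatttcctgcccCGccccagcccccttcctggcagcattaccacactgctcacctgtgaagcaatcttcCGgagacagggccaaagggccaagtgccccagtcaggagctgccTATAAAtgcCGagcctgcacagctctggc
S100A14: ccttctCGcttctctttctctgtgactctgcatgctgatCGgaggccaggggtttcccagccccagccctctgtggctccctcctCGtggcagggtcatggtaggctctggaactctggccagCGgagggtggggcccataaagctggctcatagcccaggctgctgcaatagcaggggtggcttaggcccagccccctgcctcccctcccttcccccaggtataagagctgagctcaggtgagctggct
S100P: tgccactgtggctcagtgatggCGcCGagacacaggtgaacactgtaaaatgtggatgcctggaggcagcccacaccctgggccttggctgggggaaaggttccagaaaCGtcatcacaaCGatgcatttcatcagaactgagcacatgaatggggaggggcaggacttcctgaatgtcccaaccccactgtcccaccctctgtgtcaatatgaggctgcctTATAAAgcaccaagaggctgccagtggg
The window of S100A6 held 24 CG pairs and that of S100A11 held 15, whereas the windows of S100A9, S100A14 and S100P held 4 each. This was not a general division. Among the other genes counted in every library, S100A10 held 24 CG pairs, S100A4 held 7, S100A2 held 4 and 3 in its 2 windows, and S100A16 held 1 and 6. Over all 35116 RefSeq promoter windows of 250 bases, the median was 11 CG pairs, 42.9% of windows held at least 15 and 45.9% held at most 8. TATAAA, searched on both strands, lay 29 bases before the start of S100A9 and 28 bases before that of S100P, but also 31 bases before that of S100A4. For S100A8, nearly absent in all lines, it lay 29 bases before 1 RefSeq start and 126 bases before another, and its windows held 2 CG pairs each. TATAAA occurs in 10.7% of all windows. The GC box motif GGGCGG, searched on both strands, occurred 3 times for S100A6 and 1 time each for S100A9 and S100A11, and 42.6% of all windows hold it. CG pairs can overlap GGGCGG. A match is a match of letters only, and no promoter activity was measured.

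The libraries held between 19918911 and 32394170 reads assigned to genes (median 27407478). Levels are given as counts per 1000000 reads in genes that passed a filter on low counts, after TMM scaling (CPM). Library 13 was left out because its read totals matched no entry of the table of runs, and the study describes 1 discarded U-2 OS cytoplasmic sample. All total RNA libraries were run on flow cell A, as were 3 cytoplasmic libraries (U-251MG 19 and 20 and U-2 OS 14), and the rest were on flow cell B. In A-431, fraction and flow cell cannot be told apart. The study reports a nuclear electrophoresis peak in all total RNA samples and, among cytoplasmic samples, only in the discarded one. The nuclear RNAs MALAT1 and NEAT1, by contrast, went against the fraction labels. Summed over both genes, they were at 185.8 to 339.7 CPM in the A-431 libraries labelled total and at 664.8 to 817.8 CPM in those labelled cytoplasmic. The same order was found in U-251MG (235.4 to 644.1 CPM in total and 1035 to 1391 CPM in cytoplasmic libraries) and in U-2 OS (397.9 to 596.0 CPM in total and 647.4 to 888.5 CPM in cytoplasmic libraries). The part of this difference in the fraction results was not tested, and "total" and "cytoplasmic" below are the labels of the libraries. The squamous epithelial markers were uneven in A-431 total RNA, where EGFR was at 16080 CPM and CDH1 at 541.1 CPM, but KRT14 was at 0.105 CPM and KRT17 at 108.3 CPM (459.0 CPM in U-2 OS). At an adjusted p under 0.001 and a log2 ratio of at least 2, edgeR gave 9 of the 10 markers higher and 0 lower than in U-251MG (10.2% and 9.35% of all genes). Against U-2 OS it gave 7 higher and 2 lower (8.04% and 15.6% of all genes). U-251MG had the neural stem cell genes FABP7 (67.0 CPM) and SOX2 (119.6 CPM) but only 2.62 CPM of GFAP and no count of OLIG2. U-2 OS had COL1A1 (1230 CPM) and SPARC (1549 CPM) but only 2.14 CPM of ALPL. In total RNA the 6 U-2 OS markers summed to 2913 to 3024 CPM in U-2 OS and 2284 to 2551 CPM in U-251MG. The 6 U-251MG markers summed to 225.1 to 272.9 CPM in U-251MG and 189.5 to 203.0 CPM in U-2 OS. In these bulk libraries, fewer cells that transcribe a gene and less RNA per cell cannot be told apart. The study describes the libraries of a group as biological replicates, and the p-values measure the spread between these libraries.

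The 3 lines differed in the share of reads from S100 genes and in which S100 gene gave the largest part of it. The parts are not corrected for transcript length. Summed over the 10 genes, the level in total RNA was 2085 ± 89.9 CPM in A-431, 1339 ± 80.5 CPM in U-251MG and 715.7 ± 11.8 CPM in U-2 OS (SD, n = 4 each). In the cytoplasmic libraries it was 2332 ± 158 CPM in A-431, 1618 ± 63.1 CPM in U-251MG (SD, n = 4 each) and 743.3 ± 28.5 CPM in U-2 OS (SD, n = 3). The ranges of the 3 lines did not overlap in either fraction. In A-431 total RNA the sum was spread over several genes, with 25.0% from S100A11, 17.4% from S100A14, 17% from S100A10, 16.4% from S100A16 and 15.8% from S100A6. In U-251MG total RNA 44.2% of the sum came from S100A6, and in U-2 OS total RNA 38.0% came from S100A10.

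**Figure D1:**
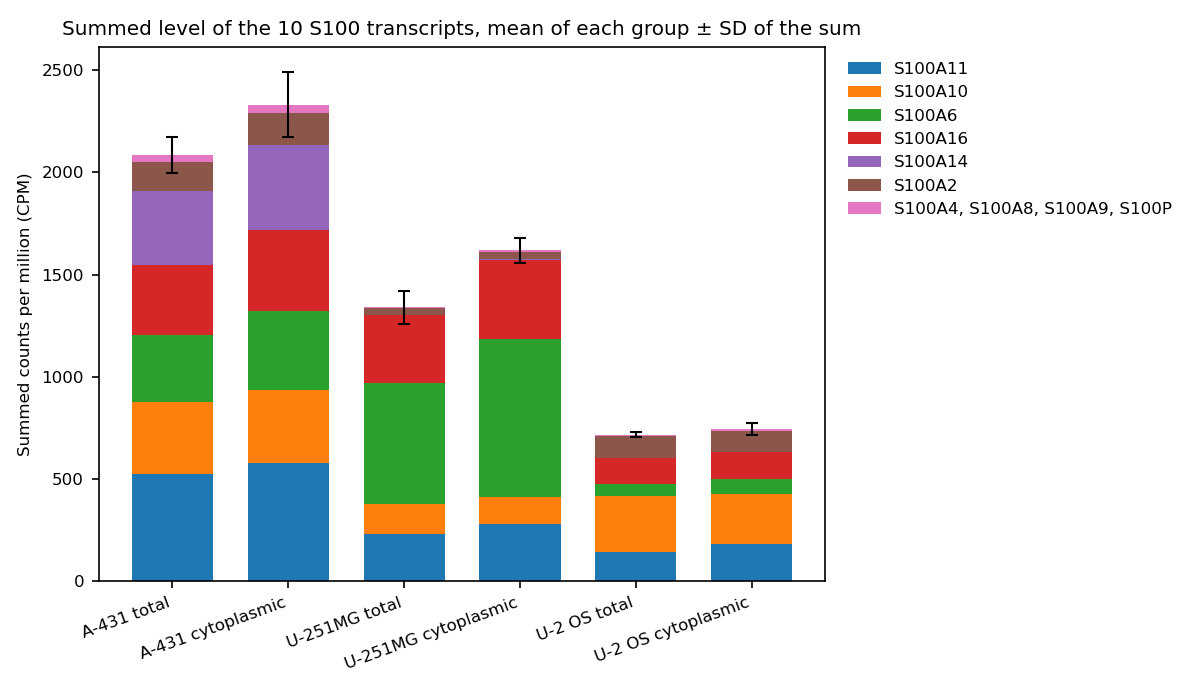
Summed level of the 10 S100 genes in CPM (y axis) in each of the 6 groups (x axis), as stacked bars of the gene means with the SD of the sum. A-431 total RNA reached 2085 CPM over several genes, U-251MG total RNA reached 1339 CPM with S100A6 as the largest band, and U-2 OS total RNA reached 715.7 CPM with S100A10 as the largest band.

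Levels can be compared between genes only per transcript length, for which the deposited RPKM values (reads per kilobase of exon per 1000000 reads) were used. In A-431 total RNA the highest RPKM were those of S100A6 (2258 ± 248), S100A10 (1726 ± 289) and S100A11 (1684 ± 115; SD, n = 4 each), whose ranges overlapped from each to the next. They were followed by S100A16 (833 ± 137 RPKM) and S100A14 (740 ± 25.0 RPKM), whose ranges also overlapped. S100A2 (576 ± 60.1 RPKM), S100P (210.0 ± 34.3 RPKM), S100A9 (30.9 ± 2.95 RPKM) and S100A4 (15.01 ± 3.02 RPKM) came next with no overlap between neighbours, and S100A8 was last at 0.218 ± 0.155 RPKM. The calcyclin gene S100A6 thus overlapped the annexin partner S100A10 but not S100A11, and the calprotectin genes S100A8 and S100A9 were near the end of the order.

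In U-251MG total RNA, S100A6 stood alone at 3807 ± 549 RPKM, above S100A16 (826 ± 159), S100A11 (716 ± 88.3) and S100A10 (606 ± 49.2), which overlapped from each to the next. S100A2 (131 ± 19.8 RPKM) and S100A4 (14.9 ± 2.84 RPKM) were lower, and the remaining 4 genes averaged 1.49 RPKM (S100A14) or less. In U-2 OS total RNA, S100A10 stood alone at 1150 ± 130 RPKM. S100A11 (468 ± 14.3), S100A2 (457 ± 20.8), S100A6 (432 ± 99.9) and S100A16 (332 ± 54.9) followed, and each overlapped the next. By RPKM, the cytoplasmic libraries had the same leading gene in each line, with S100A6 at 2046 ± 366 RPKM in A-431 and 3628 ± 871 RPKM in U-251MG and S100A10 at 1164 ± 86.6 RPKM in U-2 OS. The order, the first place included, depends on the measure used. The read numbers deposited with the RPKM values also differed from the counts, and the cause of the changed order was not tested. With counts per kilobase of annotated exon, 6, 8 and 7 of the 10 genes kept their rank in A-431, U-251MG and U-2 OS total RNA. By counts per kilobase S100A11 led in A-431 (804.1 CPM per kilobase, against 349.0 for S100A10 and 339.7 for S100A6). By the same measure S100A11 also led in the cytoplasmic libraries of A-431 (894.0, against 402.5 for S100A6) and U-2 OS (278.9, against 239.2 for S100A10).

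**Figure D2:**
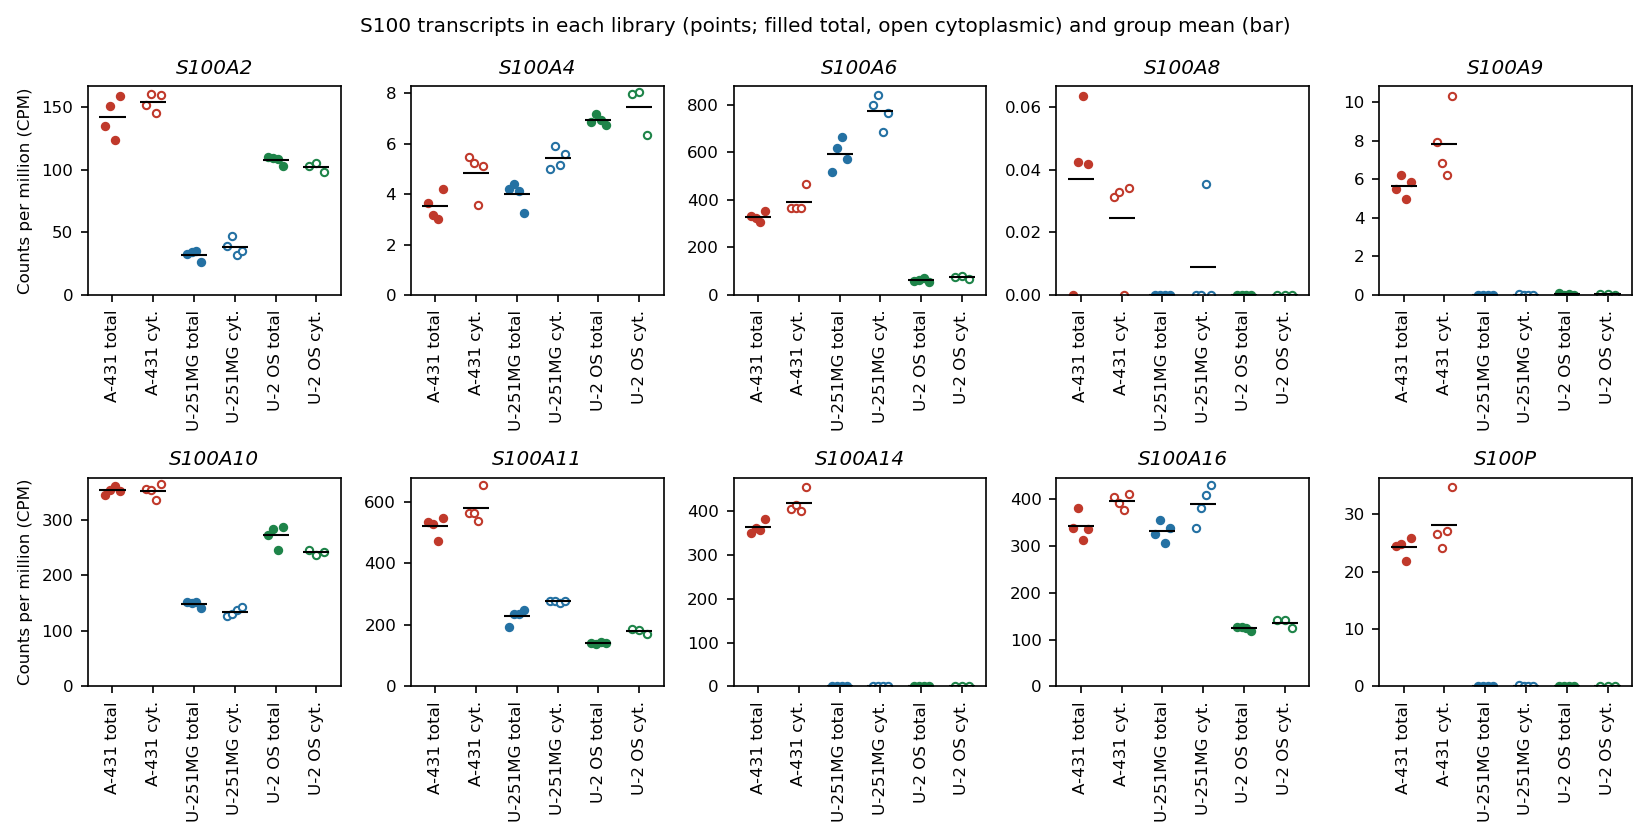
Level of each of the 10 S100 genes in CPM (y axes, 1 panel per gene) in every library, with filled points for total RNA, open points for cytoplasmic RNA and a bar at the group mean, from A-431 on the left to U-2 OS on the right. S100A6 was highest in U-251MG (516.0 to 663.1 CPM in total RNA), S100A10 and S100A11 were highest in A-431, and S100A9, S100A14 and S100P were near 0 outside A-431.

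S100A10 and S100A11 form tetramers with annexins, S100A10 with ANXA2 and S100A11 with ANXA1. S100A11 had 535.3, 529.2, 473.5 and 549.5 CPM in the A-431 total RNA libraries, against 193.2, 234.8, 237.2 and 249 CPM in U-251MG and 141.2, 139.4, 145.9 and 142.7 CPM in U-2 OS. Every A-431 library was above every U-251MG library, and every U-251MG library was above every U-2 OS library. The log2 ratio was 1.22 (SE 0.0693) for A-431 over U-251MG, 1.90 (SE 0.0708) for A-431 over U-2 OS and 0.68 (SE 0.0692) for U-251MG over U-2 OS, with edgeR adjusted p-values of 1.76e-14, 1.98e-18 and 2.16e-09. None of the 3 reached the log2 ratio of 2 that was required for a call between lines. The cytoplasmic libraries kept the order without overlap, with 564.3, 565.8, 536.7 and 653.9 CPM of S100A11 in A-431, against 279.5, 278.0, 271.9 and 276.6 CPM in U-251MG and 187.4, 184.2 and 171.6 CPM in U-2 OS. The log2 ratios were 1.06, 1.71 and 0.64.

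S100A10 had a different order. It had 345.6, 354.6, 360.5 and 352.1 CPM in A-431 total RNA, against 152.8, 149.6, 151.4 and 141.7 CPM in U-251MG and 273.1, 283.2, 245.3 and 287.5 CPM in U-2 OS. The groups did not overlap, and U-251MG was the lowest, at a log2 ratio of -0.88 (SE 0.0605) to U-2 OS and 1.28 (SE 0.0608) for A-431 over U-251MG (edgeR adjusted p 9.53e-13 and 4.23e-16). Its cytoplasmic level was 355.7, 353.6, 335.3 and 364.4 CPM in A-431, against 127.6, 130.8, 138.2 and 142.7 CPM in U-251MG and 246.4, 237.3 and 242.4 CPM in U-2 OS. The lines again did not overlap, and the log2 ratios were 1.38 for A-431 over U-251MG, 0.57 for A-431 over U-2 OS and -0.82 for U-251MG over U-2 OS. A-431 varied little here, with 353.2 ± 6.17 CPM in total and 352.2 ± 12.2 CPM in cytoplasmic RNA (SD, n = 4 each).

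S100A6, known as calcyclin and a binding partner of CACYBP, showed the widest range among the genes counted in every line. It had 334.4, 323.3, 306.8 and 355.1 CPM in A-431 total RNA, against 516.0, 619.8, 663.1 and 573.6 CPM in U-251MG total RNA, and 58.2, 62.6, 69.5 and 56.0 CPM in U-2 OS total RNA. The lowest U-251MG library was above the highest A-431 library, and the lowest A-431 library was above the highest U-2 OS library. The log2 ratio was -0.82 (SE 0.0756, edgeR adjusted p 3.76e-10) for A-431 over U-251MG, 2.44 (SE 0.0804, edgeR adjusted p 1.45e-19) for A-431 over U-2 OS and 3.26 (SE 0.0828, edgeR adjusted p 9.7e-22) for U-251MG over U-2 OS. In cytoplasmic RNA, S100A6 had 364.8, 366.7, 364.7 and 467.2 CPM in A-431, against 798.1, 840.3, 686.9 and 764.3 CPM in U-251MG and 73.9, 80.5 and 66.6 CPM in U-2 OS. The lines were in the same order with no overlap, and the ratios were -0.99, 2.43 and 3.42.

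S100A4, which binds non-muscle myosin, was low everywhere and highest in U-2 OS, with 3.65, 3.19, 3.02 and 4.22 CPM in A-431 total RNA, against 4.21, 4.42, 4.14 and 3.25 CPM in U-251MG and 6.85, 7.19, 6.93 and 6.74 CPM in U-2 OS. A-431 and U-251MG overlapped (log2 ratio -0.16, SE 0.142, edgeR adjusted p 0.325), and both lay below U-2 OS, at log2 ratios of -0.96 (SE 0.134) and -0.80 (SE 0.133). In cytoplasmic RNA, S100A4 had 5.46, 5.24, 3.59 and 5.13 CPM in A-431, against 4.99, 5.90, 5.17 and 5.58 CPM in U-251MG and 7.95, 8.04 and 6.32 CPM in U-2 OS. Every U-2 OS library was again above every other library, by smaller log2 ratios of -0.59 for A-431 and -0.43 for U-251MG.

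S100A2 is known as a p53-binding protein of basal keratinocytes. S100A2 had 135.0, 150.8, 123.8 and 159.4 CPM in A-431 total RNA, against 32.7, 34.6, 35.4 and 26.5 CPM in U-251MG and 110.7, 109.7, 108.8 and 102.8 CPM in U-2 OS. The U-251MG libraries were far below both other lines, and the A-431 libraries were all above the U-2 OS libraries by a smaller step. The log2 ratio was 2.17 (SE 0.087, edgeR adjusted p 2.21e-17) for A-431 over U-251MG and 0.42 (SE 0.0815, edgeR adjusted p 5.08e-05) for A-431 over U-2 OS. The cytoplasmic libraries held 152.1, 160.5, 145.4 and 160.2 CPM of S100A2 in A-431, against 39.3, 47.5, 32.2 and 35.3 CPM in U-251MG and 103.1, 105.2 and 98.6 CPM in U-2 OS. The lines were in the same order as in total RNA and did not overlap. In cytoplasmic RNA the ratio of A-431 to U-251MG was 1.996 (SE 0.0903, edgeR adjusted p 4.21e-13), just under the required log2 ratio. It passed without U-251MG cytoplasmic library 18 (2.11), so that 1 library decided the call of S100A2 in that fraction.

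S100A16 had 338.4, 381.0, 312.0 and 336.8 CPM in A-431 total RNA, against 326.6, 354.9, 305.6 and 339.2 CPM in U-251MG and 126.0, 127.5, 124.0 and 118.7 CPM in U-2 OS. A-431 and U-251MG overlapped, with a log2 ratio of 0.08 (SE 0.0644, edgeR adjusted p 0.295), and both were above U-2 OS, at log2 ratios of 1.49 (SE 0.0661) and 1.41 (SE 0.066). S100A16, a widely expressed member, had 404.5, 391.0, 376.5 and 410.5 CPM in the cytoplasmic libraries of A-431, against 337.5, 380.3, 410.0 and 430.8 CPM in U-251MG and 142.1, 142.5 and 124.4 CPM in U-2 OS. A-431 and U-251MG overlapped again (log2 ratio 0.02), and U-2 OS lay below both, at log2 ratios of 1.56 and 1.54.

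**Figure D3:**
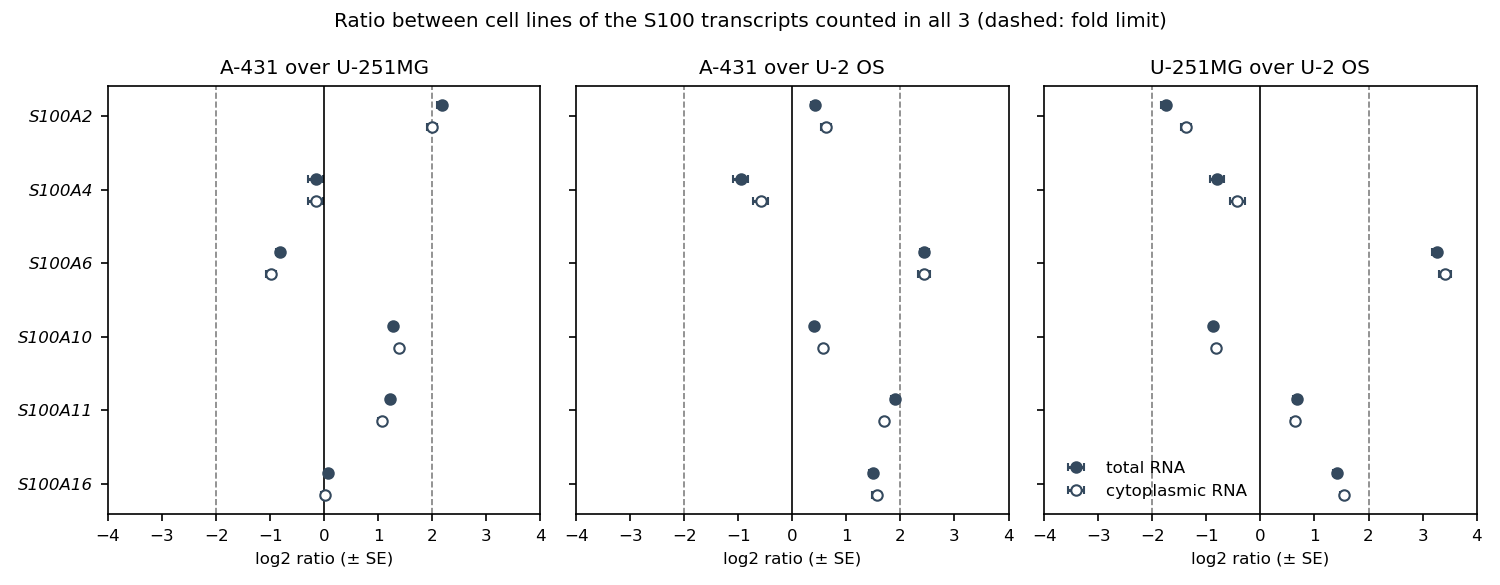
Log2 ratio between cell lines (x axis) for the 6 S100 genes counted at a level above background in every line, with SE, filled points for total RNA and open points for cytoplasmic RNA. The dashed lines mark the log2 ratio of 2 in either direction. S100A6 lay past the line in both comparisons with U-2 OS (3.26 and 2.44 in total RNA) and S100A2 lay past it for A-431 over U-251MG in total RNA (2.17).

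S100A14 and S100P are epithelial members, S100P having been found first in placenta. S100A14 had 351.3, 360.7, 357.9 and 381.1 CPM in A-431 total RNA, against 1.61, 0.408, 0.0445 and 0.0361 CPM in U-251MG and 0.0878, 0.426, 0.729 and 0.699 CPM in U-2 OS. The A-431 libraries together held 37612 reads, against 45 reads in U-251MG and 52 reads in U-2 OS. The ratio of the sums, scaled to library size, was 796 (95% interval 594 to 1090, counting error only) over U-251MG and 713 (544 to 955) over U-2 OS. Of the 45 reads in U-251MG, 31 came from total library 5, and the ratio without it was 2060. In the cytoplasmic libraries the ratio was 1470 (1040 to 2160) over U-251MG and 1130 (795 to 1660) over U-2 OS. The few reads outside A-431 were not spread evenly. Total RNA libraries that shared a sequencing lane with an A-431 library held 20, 20, 31 and 12 reads of S100A14, which is 0.221% of the reads in their lane mates, against 2, 10, 1 and 1 reads in those that did not. The cytoplasmic libraries had 17, 11, 11 and 11 reads in shared lanes (0.0989% of those in their lane mates) and 3, 3 and 6 reads in other lanes. The libraries in shared lanes were higher in both fractions, with no overlap, and the cause was not tested. S100P had 24.4, 24.8, 21.9 and 25.9 CPM in A-431 total RNA, which is 2501 reads, against 1 read in U-251MG and 7 reads in U-2 OS. It had 26.7, 24.2, 27.1 and 34.7 CPM in the A-431 cytoplasmic libraries, which is 3401 reads, against 12 reads in U-251MG and 7 reads in U-2 OS. S100P was thus counted in all 8 A-431 libraries at more than 20 CPM and at no more than 0.181 CPM in any other library used. In total RNA the ratio was 2380 (427 to 94100) over U-251MG and 352 (171 to 877) over U-2 OS, and in the cytoplasmic libraries it was 255 (146 to 495) and 336 (163 to 837). The 1 read in U-251MG total RNA was in library 5, and without it S100P was at least 210-fold higher in A-431 (floor of 3 reads per library).

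**Figure D4:**
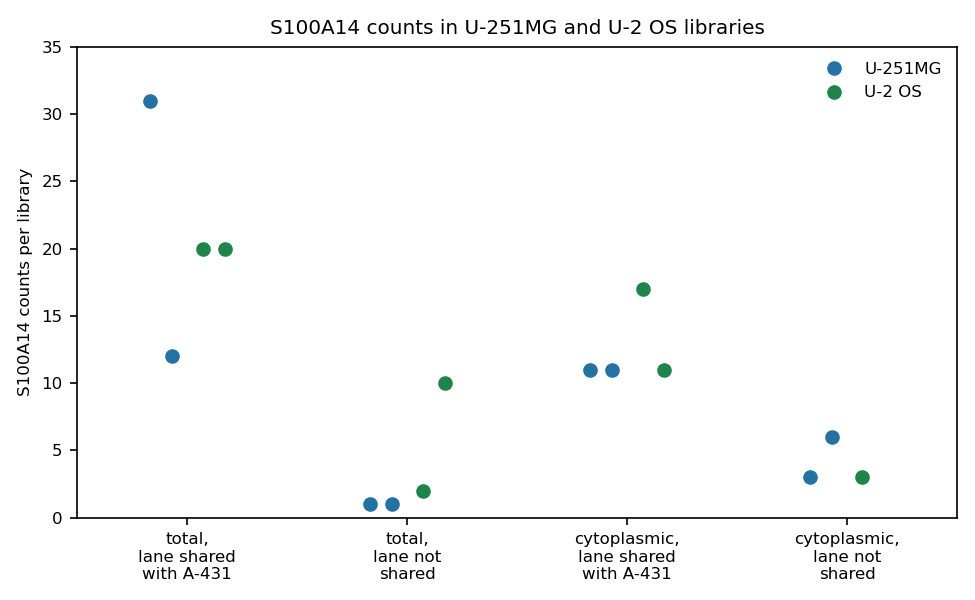
Reads of S100A14 (y axis) in each U-251MG and U-2 OS library, separated by whether the library shared a sequencing lane with an A-431 library (x axis). Total RNA libraries held 12 to 31 reads in shared lanes and 1 to 10 reads in other lanes, and cytoplasmic libraries held 11 to 17 and 3 to 6 reads.

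S100A8 and S100A9 form calprotectin, best known from neutrophils and monocytes and also made by stimulated keratinocytes. S100A9 had 5.50, 6.20, 4.998 and 5.85 CPM in the total libraries of A-431 and 7.93, 6.85, 6.22 and 10.3 CPM in its cytoplasmic libraries. In total RNA it had 580 reads in A-431, against 0 reads in U-251MG and 4 reads in U-2 OS. With a floor of 3 reads per library (0.125 CPM), the A-431 level was at least 44.7-fold higher than that of U-251MG, and it was 143 times (55.5 to 526) that of U-2 OS. In the cytoplasmic libraries 947 reads in A-431 stood against 2 reads in U-251MG and 3 reads in U-2 OS, at ratios of 427 (118 to 3530) and 218 (74.5 to 1060). Single libraries moved these values. Without U-251MG cytoplasmic library 17, which held both reads, S100A9 was at least 70.7-fold higher in A-431. The ratio to U-2 OS was 444 without cytoplasmic library 15, 144 without cytoplasmic library 16 and, in total RNA, 222 without library 1. Its partner S100A8 was nearly absent in the same libraries, with 0, 1, 2 and 1 reads in A-431 total RNA and 1, 1, 0 and 1 reads in A-431 cytoplasmic RNA. U-251MG held 1 read of S100A8 in 1 cytoplasmic library, and U-2 OS held none in any library used. A count of 0 in a single library, taken alone, allows up to about 3 reads. Of the 8 leukocyte markers, TYROBP and SPI1 were at 0 in A-431 total RNA, PTPRC was at 0.0301 CPM and LYZ at 0.0401 CPM. The sum of the list was 147.9 to 179.6 CPM in A-431 total RNA, 51.6 to 65.4 CPM in U-251MG and 4.30 to 4.85 CPM in U-2 OS, and in A-431 the macrophage gene CD68, which many other cells also express, made up 157.4 CPM of it. CD68 was not the only marker counted, as 3 of the 8 had enough reads to be tested between the fractions of A-431. Of the 4 tested between lines in total RNA, edgeR called 3 higher and 1 lower in A-431 than in U-2 OS. Of all genes, 8.04% were called higher and 15.6% lower there. Against U-251MG it called 1 marker higher in A-431 and 0 lower, with 10.2% and 9.35% of all genes.

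Counted over all genes, a call between lines needed an edgeR adjusted p under 0.001 and a log2 ratio of at least 2 in either direction. Of the 10 genes 9 passed the filter on low counts and S100A8 did not. S100A9 and S100P passed it only through A-431, so their calls followed from the filter. S100A14 also passed it in the separate fits between fractions of U-251MG and of U-2 OS, on few reads. The calls of these genes are given as a description. In total RNA, 4 of the 9 genes were called higher in A-431 than in U-251MG (S100A2, S100A9, S100A14 and S100P), against 10.2% of the 18610 genes tested. Against U-2 OS 4 were called higher (S100A6, S100A9, S100A14 and S100P), against 8.04% of all genes tested. S100A6 alone was called higher in U-251MG than in U-2 OS, against 5.29% of all genes tested. None of the 9 was called lower in any of these 3 comparisons, in which edgeR called 9.35%, 15.6% and 14.5% of all genes lower. At an unadjusted p under 0.05, edgeR gave 1 of the 9 lower in A-431 than in U-251MG (S100A6), against 37.2% of all genes. It gave 1 lower in A-431 than in U-2 OS (S100A4), against 42.5%. In U-251MG 5 were lower than in U-2 OS (S100A2, S100A4, S100A9, S100A10 and S100P), against 42.9%. Of these, S100A9 and S100P had few reads in both lines. At the same level 6, 8 and 3 of the 9 were higher, against 37.2%, 37.8% and 35.6% of all genes. DESeq2 called 0 of the 9 lower in each comparison. In cytoplasmic RNA the calls were S100A9, S100A14 and S100P for A-431 over U-251MG (10.4% of 19344 genes called higher), the same 3 with S100A6 for A-431 over U-2 OS (8.53%) and S100A6 for U-251MG over U-2 OS (5.56%). No S100 gene was called lower there by edgeR or by DESeq2, against 9.52%, 15.4% and 14.1% of all genes. At an unadjusted p under 0.05 edgeR gave 1, 1 and 3 of them lower, against 39.0%, 41.1% and 41.3% of all genes. It gave 6, 8 and 3 higher, against 37.8%, 39.1% and 37.4%.

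The question put to the 2 fractions was which genes are differentially detected between total and cytoplasmic RNA, with a call at an edgeR adjusted p under 0.001. Most S100 genes had lower values in total than in cytoplasmic RNA by small amounts, a direction that a GC content correction turned for S100A2, S100A6 and S100A16 in A-431 and for S100A16 in the other lines. In A-431, the median log2 ratio of total over cytoplasmic RNA was -0.20 over the 9 S100 genes tested and -0.01 over all 16376 genes. None of the 9 was called, against 19.7% of all genes (10.2% higher and 9.51% lower). By edgeR, 7 of the 9 were lower at an unadjusted p under 0.05, a level that 28.7% of all genes reached in that direction, and DESeq2 called 0 of the 9. The log2 ratios ran between -0.46 for S100A9 (SE 0.138, edgeR adjusted p 0.0101) and S100A4 (SE 0.146, edgeR adjusted p 0.0151) and 0.02 for S100A10 (SE 0.0489, edgeR adjusted p 0.772). The abundant S100A14, at 351.3 to 381.1 CPM in total and 399.7 to 454.1 CPM in cytoplasmic libraries, had a log2 ratio of -0.19 (SE 0.0544, edgeR adjusted p 0.00795), and S100A16 had -0.20 (SE 0.0599, edgeR adjusted p 0.012). The groups of S100A14 did not overlap. Nor did those of S100A6, at 306.8 to 355.1 CPM in total and 364.7 to 467.2 CPM in cytoplasmic libraries. Those of S100A9 were barely apart, at 4.998 to 6.20 CPM in total and 6.22 to 10.3 CPM in cytoplasmic libraries. The groups of S100A2, S100A4, S100A10, S100A11, S100A16 and S100P overlapped.

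In U-251MG, the median was -0.28 over the 7 S100 genes tested and 0.00 over all 16128 genes. None of the 7 was called by edgeR, against 12.9% of all genes (5.93% higher and 6.98% lower). The unadjusted p was under 0.05 for 4 of the 7, all lower, against 28.3% of all genes, and DESeq2 called S100A6. S100A6 had 516.0, 619.8, 663.1 and 573.6 CPM in total and 798.1, 840.3, 686.9 and 764.3 CPM in cytoplasmic libraries. The fractions did not overlap, and the log2 ratio was -0.40 (SE 0.0871, edgeR adjusted p 0.00242). S100A11 had -0.30 (SE 0.0721, edgeR adjusted p 0.0048), S100A16 had -0.25 (SE 0.0774, edgeR adjusted p 0.0163), and S100A4 had -0.46 (SE 0.133, edgeR adjusted p 0.0128). S100A10 went the other way at 0.12 (SE 0.063, edgeR adjusted p 0.12). On flow cell A alone, with 2 cytoplasmic libraries, the log2 ratios were -0.31 for S100A6, -0.28 for S100A11 and -0.36 for S100A16, and S100A2 had -0.08, against -0.28 with all libraries. S100A14 was tested on few reads here, and its log2 ratio of 0.71 (SE 0.976, edgeR adjusted p 0.582) was -0.72 without total library 5.

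In U-2 OS, the median was -0.10 over the 7 S100 genes tested and close to 0 over all 18049 genes. S100A11 was called lower in total RNA and none was called higher, by edgeR as by DESeq2, against 3.61% of all genes called lower, 4.75% called higher and 8.36% called in either direction by edgeR. The unadjusted edgeR p was under 0.05 for 3 genes that were lower (19.1% of all genes) and 1 that was higher (20.3% of all genes). S100A11 had 141.2, 139.4, 145.9 and 142.7 CPM in total libraries, against 187.4, 184.2 and 171.6 CPM in cytoplasmic libraries. The fractions did not overlap, and the log2 ratio was -0.34 (SE 0.0501, edgeR adjusted p 3.92e-06). On flow cell A alone it was -0.41, which rests on 1 cytoplasmic library, and with 1 model over all 6 groups the call was lost (-0.35, edgeR adjusted p 0.00201). S100A6 (-0.25, SE 0.0701, edgeR adjusted p 0.00836) and S100A10 (0.18, SE 0.0536, edgeR adjusted p 0.0116) missed the threshold, and without total library 3 both passed it, at -0.31 and 0.22. S100A10 had 273.1, 283.2, 245.3 and 287.5 CPM in total and 246.4, 237.3 and 242.4 CPM in cytoplasmic libraries, so that total library 3 lay just below the highest cytoplasmic library.

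**Figure D5:**
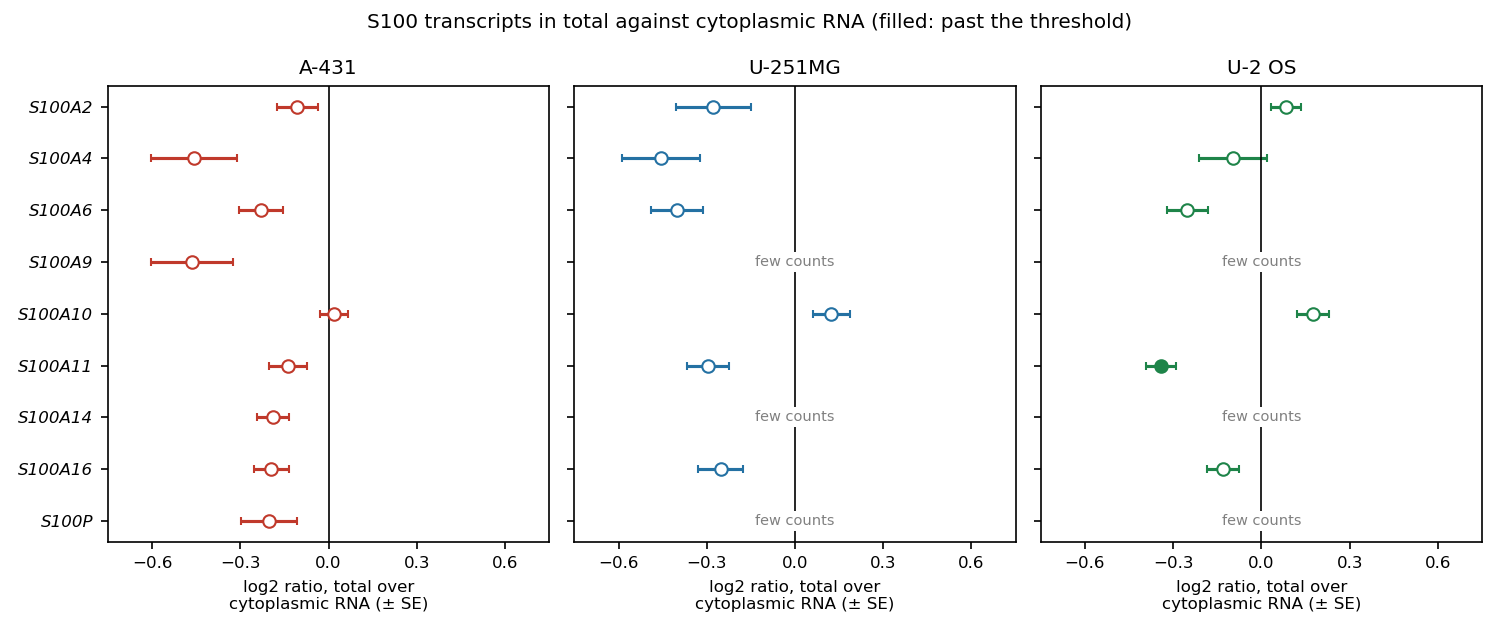
Log2 ratio of total over cytoplasmic RNA (x axis) with SE for 9 S100 genes in A-431, U-251MG and U-2 OS, with filled points past an edgeR adjusted p of 0.001 and open points short of it. Without a GC content correction, S100A6 lay left of 0 in all 3 lines (-0.23, -0.40 and -0.25; 0.03 in A-431 with it), S100A10 lay at or right of 0 (0.02, 0.12 and 0.18), and S100A11 in U-2 OS (-0.34) is the filled point.

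A correction for the GC content of transcripts moved several of these small ratios across 0. With it, the A-431 log2 ratio of S100A6 was 0.03 and that of S100A16 was 0.04, against -0.23 and -0.20 without it. The deposited RPKM values of S100A6 also had another order than its counts. In A-431 the RPKM means were 2258 in total and 2046 in cytoplasmic RNA, whereas the CPM means were 329.9 and 390.9. In U-251MG the RPKM means were 3807 in total and 3628 in cytoplasmic RNA, and the CPM means 593.1 and 772.4. For U-2 OS they were 432 in total and 414 in cytoplasmic RNA by RPKM, and 61.6 and 73.7 by CPM. The RPKM ranges of the fractions overlapped in every line, and the cause of the difference between the units was not tested. All 10 genes have short coding sequences. Among genes with coding sequences of at most 400 bases, the median log2 ratio of total over cytoplasmic RNA was -0.08 for A-431, -0.09 for U-251MG and 0.01 for U-2 OS.

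Whether the fraction ratio of a gene differed between lines was tested as an interaction over all 6 groups. None of the 9 genes tested passed an edgeR adjusted p of 0.05, against 0.16% of 19948 genes for A-431 minus U-251MG, 2.12% for A-431 minus U-2 OS and 1.67% for U-251MG minus U-2 OS. At an unadjusted p under 0.05, edgeR gave 1 gene in the first (S100P, which had 1 and 12 reads in U-251MG), 1 in the second (S100A10, difference -0.17, adjusted p 0.328) and 2 in the third (S100A2, difference -0.34, adjusted p 0.171, and S100P). The shares of all genes at that level were 7.66%, 14.6% and 19.3%, and DESeq2 called 0 of the 9 in each. The call of S100A11 in U-2 OS was thus not shown to differ from the other lines.

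The partners of S100 proteins were counted in all lines. ANXA2, the partner of S100A10, had 783.2 ± 63.2 CPM in A-431 total RNA, 1110 ± 65.1 CPM in U-251MG and 1206 ± 28.0 CPM in U-2 OS (SD, n = 4 each), so that it was lowest in the line in which S100A10 was highest. ANXA1, the partner of S100A11, had 912.5 CPM in A-431, 679.5 CPM in U-251MG and 411.5 CPM in U-2 OS, the same order as S100A11. CACYBP had 128.5, 184.3 and 98.2 CPM in the same order of lines, highest in U-251MG as was S100A6. These are 3 lines only, and no relation was tested. Of the 13 annexins and binding partners tested, ANXA6, a membrane-binding annexin, was called lower in A-431 than in either other line (log2 ratio -6.09 to U-251MG and -5.83 to U-2 OS in total RNA, edgeR). It was the only 1 of the 13 called lower there, where edgeR called 9.35% and 15.6% of all genes lower. Between fractions, ANXA1 (log2 ratio 0.25) and IQGAP1 (3.05) were called higher in A-431 total RNA, IQGAP1 (1.91) and ANXA1 (0.35) in U-251MG, and CACYBP (0.33) and IQGAP1 (0.38) in U-2 OS, where ANXA6 (-0.27) was called lower. Of all genes, edgeR called 10.2%, 5.93% and 4.75% higher in the 3 lines, and 3.61% lower in U-2 OS. The median log2 ratio of the list was 0.12, -0.02 and 0.08 in the 3 lines.

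Of the 4 receptors listed, 3 passed the filter of the total RNA comparison between lines. BSG, which binds S100A9, had 311.1 CPM in A-431 total RNA, 388.0 CPM in U-251MG and 234.3 CPM in U-2 OS. TLR4, the receptor of calprotectin, had 0.0305, 40.9 and 88.2 CPM in the same lines and was called lower in A-431, the line with S100A9. AGER was low, with 1.56, 1.04 and 3.31 CPM. The genes of the epidermal differentiation complex, which lie between the S100 genes on chromosome 1 and encode cornified envelope proteins, were low in A-431. Their sum over the 13 genes counted was 2.20 to 3.40 CPM in A-431 total RNA, 11.8 to 13.2 CPM in U-251MG and 38.1 to 56.7 CPM in U-2 OS. FLG, which encodes filaggrin, had 0.512, 12.1 and 38.4 CPM in the 3 lines, opposite in order to the sum of the S100 genes. Of the 4 complex genes that passed the filter, IVL and TCHH were called higher and FLG and HRNR lower in A-431 than in U-251MG (edgeR, total RNA). Of all genes, 10.2% were called higher and 9.35% lower there.

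The genes with the most similar pattern were searched among 9208 protein-coding genes, by the root mean square (RMS) difference of centred log2 CPM over the 23 libraries. The closest were PTGR1 to S100A10 (RMS difference 0.091), SMARCD2 to S100A11 (0.101), FARSA to S100A16 (0.108), TCF25 to S100A4 (0.156), RBMS2 to S100A2 (0.193) and ABTB2 to S100A6 (0.227). For the genes counted almost only in A-431, the closest were PROM2 to S100P (0.555), F11R to S100A9 (0.594) and MAL2 to S100A14 (1.26). The libraries fall into 3 lines, so that a likeness over them rests mainly on 3 levels.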

How the data were processed

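The 10 S100 genes and the gene lists were chosen with earlier results of these data known. Per the labels and the study's methods, the authors sequenced bar-coded poly(A)+ libraries on an Illumina HiSeq instrument. The methods name an RNeasy extraction and single reads, whereas the labels name Trizol and paired ends, and this was not resolved. Per the submitters' processing notes, TopHat 1.1.4 and SAMtools 0.1.8 were used for the alignment, on hg19 (GRCh37). The deposited counts are whole reads per gene from HTSeq 0.4.6, which the authors ran in intersection-strict mode without strand, and 6 entries that name no gene, with 25.9% to 33.6% of the reads of a library, were left out of totals and tests. The deposited RPKM values were made by the authors with the rpkmforgenes script. The read numbers beside them summed to 5.32 to 5.74 times the counts and were not used.

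Libraries were tied to the study's table of runs by their read totals (23 of 24 matched, 22 of them by all 4 values), which gave flow cells and lanes. CPM is the count over the library size after TMM scaling. Library size here is the reads in genes that passed filterByExpr over the 6 groups, and the scaling took all 24 libraries. Counts were filtered by filterByExpr, scaled by TMM and tested by the quasi-likelihood test of edgeR 4.0.16 (R 4.3.3; robust glmQLFit, Benjamini-Hochberg over all genes tested), with a separate fit per line for fractions, 1 fit per fraction for lines and 1 fit over all 6 groups for interactions. Intervals of ratios of counts are at 95% and cover counting error only. The text names all 10 genes, the other S100 genes, the listed pathway genes and, for each S100 gene that passed the filter, the genes of most similar pattern. The alternatives tried were RLE scaling, DESeq2 1.42.0, no filter, leaving out each library, all 24 libraries, 1 flow cell, a GC content offset, 1 model over all groups and length from the annotation. Leaving out libraries that shared a lane with A-431, and a block for the replicate numbers of the table of runs, were added after seeing the data. Scripts were tested on simulated data. GENCODE (lifted to GRCh37) annotated 42986 of 51715 genes. Tables and figures used Python 3.11.15, pandas 2.3.3, numpy 2.4.6 and matplotlib 3.10.9.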

Additional observations from a re-analysis of the deposited data

Results flagged for a closer look

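Of 78 sets of 4 libraries checked for 1 library far from the other 3, 6 had such a library, and chance alone gives about 1 in 20. S100A6 in A-431 cytoplasmic library 24 had 467.2 CPM, against 364.7 to 366.7 CPM in the other 3 libraries, and 2592 RPKM, against 1816 to 1912 RPKM. The same library had 2117 RPKM of S100A10, against 1702 to 1772 RPKM. S100A4 in U-2 OS total library 1 had 77.3 RPKM, against 25.4 to 27.3 RPKM in the others, while its CPM there (6.85) was within the 6.74 to 7.19 of the group. S100A9 in A-431 total library 11 had 26.5 RPKM, against 32.2 to 32.6 RPKM. S100A11 in U-2 OS total library 3 had 489.6 RPKM, against 459.0 to 464.2 RPKM.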

How the results depend on the processing

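The titles number the libraries 1 to 24, but the table of runs gives both fractions of a line the same replicate numbers. Deviations of same-numbered libraries from their group means correlated over genes at 0.018 to 0.213 for A-431, -0.376 to 0.301 for U-251MG and 0.068 to 0.147 for U-2 OS, so that not every pair passed 0.1 in any line, and only in U-2 OS did every library correlate best with its own number. With the replicate block, chosen after seeing the data, 4293 genes were called for A-431, 1582 for U-251MG and 3448 for U-2 OS (1330 without the block and without total library 1, which has no partner). It changed no call of an S100 gene in A-431 or U-251MG, whereas in U-2 OS 1 was called higher (S100A10, 0.17) and 2 lower (S100A11, and S100A6 at -0.23), against 0 and 1. Of the values of single S100 genes under other settings, 931 kept their direction and their side of the threshold, 15 changed sign, 15 passed the threshold newly and 1 (S100A11 in U-2 OS) lost it. With the GC content offset, the total over cytoplasmic log2 ratio was 0.0052 for S100A2, 0.031 for S100A6, -0.040 for S100A10 and 0.042 for S100A16 in A-431, 0.091 for S100A16 in U-251MG and 0.019 for S100A16 in U-2 OS. It was -0.0036 for S100A10 in A-431 with no filter. S100A16 in cytoplasmic RNA of A-431 over U-251MG was -0.094 without libraries of shared lanes. Counts of S100 genes called lower in total RNA were 2 with no filter in A-431 (S100A6 -0.25 and S100A9 -0.49, against 0), 1 with 1 model, DESeq2 or no filter in U-251MG (against 0), and 0 with 1 model and 2 with no filter in U-2 OS (against 1). S100A2 was called higher in cytoplasmic A-431 than U-251MG with DESeq2 (2.002), RLE scaling (2.002), no filter (2.003) or without shared lanes (2.19), which made 4 S100 genes called in place of 3.

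Over all genes, 1183 were called between fractions in A-431 with the GC offset (3234 without). In U-251MG the count of 2083 became 4948 with 1 model, 4219 with DESeq2, 52 on flow cell A, 3765 with no filter and 169 with the GC offset. In U-2 OS the count of 1509 became 190 with 1 model, 126 on flow cell A (1 cytoplasmic library, assumed to vary like the total ones) and 546 with the GC offset. The interaction counts were 32 for A-431 minus U-251MG (65 with DESeq2, 53 with no filter), 422 for A-431 minus U-2 OS (237 with all 24 libraries, 800 with DESeq2) and 333 for U-251MG minus U-2 OS (139 with all 24 libraries, 1049 with DESeq2, 806 with no filter). The split of higher and lower calls was 189 and 233 for A-431 minus U-2 OS (250 and 180 with RLE, 468 and 332 with DESeq2) and 181 and 152 for U-251MG minus U-2 OS (276 and 154 with RLE, 685 and 364 with DESeq2). The cause was not tested for any of these. By counts per kilobase, 6, 8 and 7 of the 10 genes kept their rank in total and 8, 8 and 6 in cytoplasmic RNA of A-431, U-251MG and U-2 OS.

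Leaving out each library in turn, all genes called ranged over 1815 to 3874 in A-431 (lowest without total 9), 533 to 1837 in U-251MG (lowest without cytoplasmic 18) and 459 to 2612 in U-2 OS (lowest without cytoplasmic 15, highest without total 3). S100 genes called in U-2 OS ranged over 0 to 1 higher and 1 to 2 lower, the second of each without total 3. The log2 ratio ranged over -0.0029 to 0.041 for S100A10 in A-431, -0.72 to 1.15 for S100A14 in U-251MG, and -0.014 to 1.004 for S100A14, -0.33 to -0.20 for S100A6 and 0.15 to 0.22 for S100A10 in U-2 OS. For A-431 over U-251MG in cytoplasmic RNA it ranged over 1.88 to 2.11 for S100A2 (3 to 4 S100 genes called) and -0.087 to 0.031 for S100A16. Interaction counts ranged over 19 to 38, 157 to 549 and 35 to 1121, the last 2 lowest without U-2 OS cytoplasmic 16. Outside A-431, levels of S100A8, S100A9 and S100P rest on at most 5 reads per library.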

Other observations

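Among the 10 other S100 genes, S100A13 was the most abundant, with 45.9 CPM in A-431, 61.9 CPM in U-251MG and 21.7 CPM in U-2 OS total RNA. In A-431 it was lower in total than in cytoplasmic RNA (45.9 and 57.4 CPM, log2 ratio -0.31, edgeR adjusted p 0.000601). S100B, the glial member, had 4.58 CPM in total and 6.59 CPM in cytoplasmic RNA of U-251MG, and at most 4 reads per library in the other lines. S100A12, S100A7A and S100G had no read in any library.

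In U-2 OS cytoplasmic library 13, which was left out, S100A10 had 209.9 CPM, S100A2 had 91.2 CPM, S100A6 had 63.9 CPM and S100A11 had 176.1 CPM. Its S100A10 and S100A2 values lie below those of the 3 cytoplasmic libraries used, S100A6 as well, and S100A11 lies within their range.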
